A study of Mus musculus with 8 samples.

Results

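The genes described here are 10 components and feedback genes of the FGF-ERK pathway, namely the ligand *Fgf4*, the receptors *Fgfr1* and *Fgfr2*, the feedback inhibitors *Spry2*, *Spry4*, *Spred1* and *Dusp6*, and the transcription factors *Etv4*, *Etv5* and *Egr1*. They were chosen by symbol among the 55385 genes of the deposited count table, and all 10 were present in the table and passed the filter on low counts. RNA-seq was performed on R1 cells, an established mouse embryonic stem cell (mESC) line with a wild-type genotype. The 3 groups were cells infected with shRNA1 (n = 3) or shRNA2 (n = 3), lentiviral hairpins against the spliceosomal GTPase gene *Eftud2*, or with nt-shRNA (n = 2), a hairpin with no target. According to the study, shRNA1 matches the untranslated region at the 3′ end of *Eftud2* and shRNA2 its coding sequence, and the infections were transient. Every group, nt-shRNA included, was grown in N2B27 medium with LIF and both 2i inhibitors, PD0325901 against the kinase MEK and CHIR99021 against GSK3, with 2 days of infection and 3 days of puromycin selection. All values below were therefore measured in cells kept in a MEK inhibitor.

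In the FGF-ERK pathway, an FGF ligand such as FGF4 binds a receptor tyrosine kinase, which through adaptors and RAS activates the kinases RAF, MEK and ERK in turn. ERK drives transcription of immediate early genes such as *Egr1*, of the ETS factors *Etv4* and *Etv5*, and of inhibitors that act back on the pathway, the Sprouty and SPRED proteins upstream of ERK and the phosphatase DUSP6 on ERK itself. In mESCs, autocrine FGF4 acting through ERK moves cells towards lineage commitment, and MEK inhibition in 2i medium holds them in the naive pluripotent state.

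Promoter sequences of 2 feedback genes are shown because both hold the octamer bound by Capicua (CIC), a repressor of ETV and other ERK-responsive genes that ERK signalling relieves. RefSeq promoters (GRCm38.p6, 300 bases, from 250 before to 50 after the start site) were matched for 6 of the 10 genes, *Fgf4*, *Fgfr2*, *Spry2*, *Spred1*, *Dusp6* and *Etv5*. *Fgfr1*, *Spry4*, *Etv4* and *Egr1* were not matched. Both strands were searched for the octamer, spelled TGAATGAA, TCAATGAA, TGAATGGA or TCAATGGA. The windows below run 5′ to 3′ on the strand of the gene, from 120 bases before the start site to 29 after it, with the reverse complement of an octamer in capitals.
Spry2, chr14:105896790-105896939, minus strand: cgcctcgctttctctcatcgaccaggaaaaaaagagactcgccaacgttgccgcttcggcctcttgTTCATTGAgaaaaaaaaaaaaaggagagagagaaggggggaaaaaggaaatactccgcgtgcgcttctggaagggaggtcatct
Dusp6, chr10:99263111-99263260, plus strand: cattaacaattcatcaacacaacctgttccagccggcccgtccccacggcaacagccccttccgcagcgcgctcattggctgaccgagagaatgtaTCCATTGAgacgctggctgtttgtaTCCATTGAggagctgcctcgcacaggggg
With the start site counted as 0, the *Spry2* octamer lies at -54 to -47 and the *Dusp6* octamers at -24 to -17 and at 1 to 8. In these spellings the octamer was found in 2 of the 6 matched genes and in 3.84% of the 32851 promoters of the table. TGAATGGG, which differs from TGAATGGA in its last base, was not searched. It occurs in an *Etv5* window (chr16:22438319-22438618), so that *Etv5* lacks only the searched spellings. The 2 of 6 counts genes, with *Etv5* searched in 2 windows, whereas the 3.84% counts promoters, which belong to 27025 genes. *Fgfr2* and *Spred1*, which like *Spry2* and *Dusp6* rose with shRNA2, held none of the searched spellings in these windows. An ETS core (CCGGAA) was found in *Spry2* alone, at 33 to 38 after the start site, beside 14.9% of all promoters. An AP-1 site (TGACTCA or TGAGTCA) and an EGR site (GCGTGGGCG or GCGGGGGCG) were found in none of the 6, beside 5.2% and 3.47% of all promoters. These matches describe letters in a window and are not measurements of binding.

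The targeted transcript was examined first. *Eftud2* (chr11:102838473-102880985) was measured at 262 and 255 CPM (counts scaled to library size with edgeR's TMM factors) in the nt-shRNA libraries, at 232, 229 and 225 CPM with shRNA1, and at 198, 202 and 234 CPM with shRNA2. All 6 knockdown libraries lay below both nt-shRNA libraries. The fitted level was 0.883-fold that of nt-shRNA with shRNA1 and 0.817-fold with shRNA2. Both are smaller losses than the study reported for these hairpins by qPCR, which it scaled to mitochondrial rRNA. The study also reported less EFTUD2 protein with either hairpin by western blot. It plotted *Eftud2* knockdown from its RNA-seq by DESeq2 too, with no values in its text. The log2 fold change was -0.18 (SE 0.0678, edgeR quasi-likelihood adjusted p = 0.0514) with shRNA1, just short of the threshold of 0.05, and -0.29 (SE 0.0678, edgeR adjusted p = 0.00122) with shRNA2. Total counts ran from 19569525 to 29871048 per library, and 3 counts, taken as the limit of detection, correspond to 0.1004 to 0.1533 CPM. Of 10 markers of pluripotent cells, *Pou5f1*, *Sox2* and *Nanog* among them, all passed the filter, and 4 of 5 markers of the primed epiblast did so too, all but *Fgf5*.

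In shRNA2-infected cells, 6 of the 10 genes rose, 1 fell and 3 did not pass the test. The genes that rose were 4 feedback inhibitors (*Spry2*, *Spry4*, *Spred1* and *Dusp6*), the ETS factor *Etv4* and the receptor *Fgfr2*, and the gene that fell was the ligand *Fgf4*. Over all 17445 genes tested by edgeR at an adjusted p under 0.05, 27.2% were called higher and 28.7% lower in that comparison. With shRNA1, 2 genes rose (*Spry2* and *Spred1*), 1 fell (*Etv5*) and 7 did not pass the test, where 13.8% of all tested genes were called higher and 17.1% lower. That split was 2 higher and 3 lower without the filter on low counts, with only the groups compared, or without shRNA2 replicate 2 or 3. It was 3 higher and 0 lower with scaling by library size alone. The median log2 fold change of the 10 genes was 0.45 with shRNA2 and 0.09 with shRNA1, beside medians over all tested genes of 0.00 and -0.01. Between the hairpins, 5 genes were higher with shRNA2 (*Spry2*, *Spry4*, *Dusp6*, *Etv4* and *Etv5*), 1 was lower (*Fgf4*) and 4 did not pass the test, where 16.9% of all tested genes were called higher and 18.7% lower. Both comparisons with nt-shRNA use the same 2 control libraries, so that their values are not independent of each other. In these bulk libraries, fewer cells expressing a gene and less RNA per cell cannot be told apart.

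**Figure D1:**
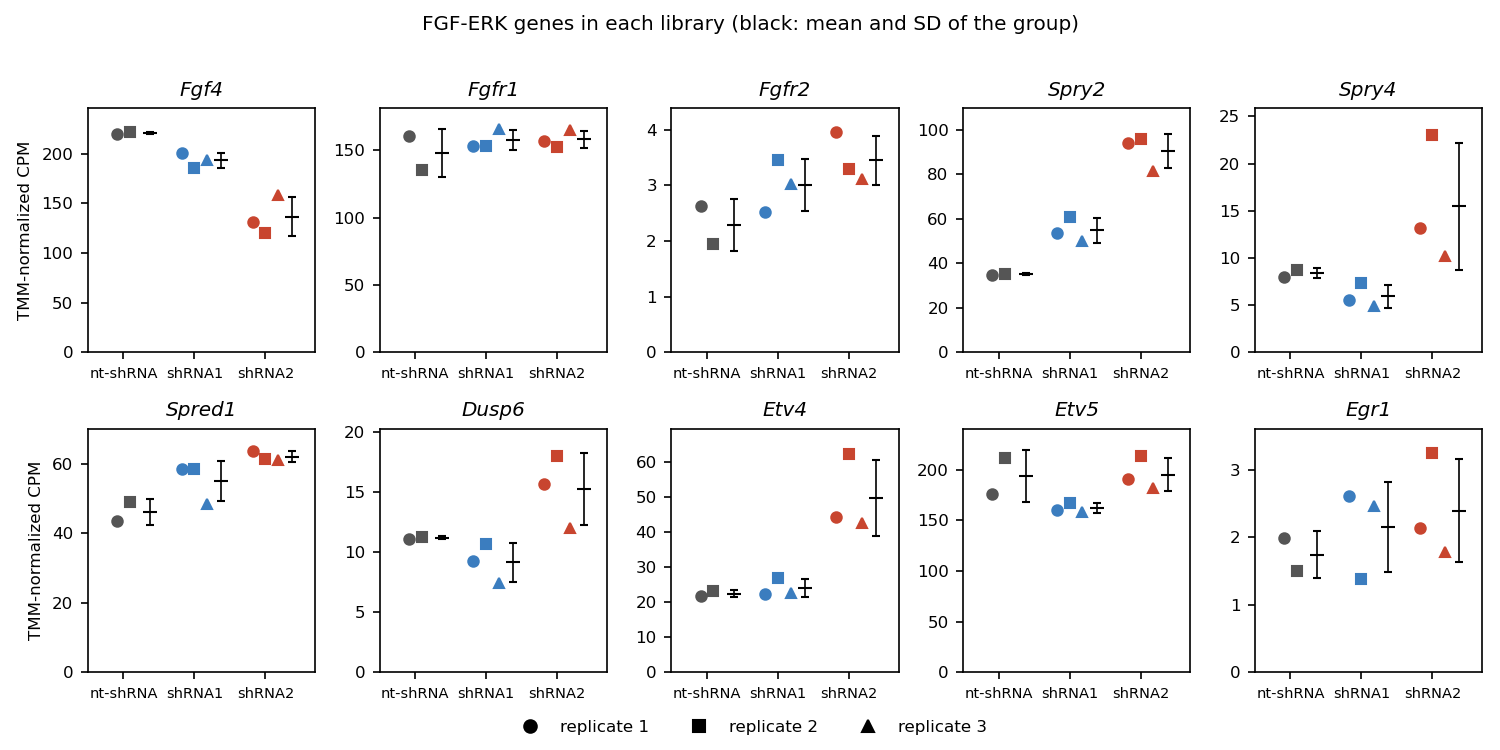
TMM-normalized CPM (vertical axes, each starting at 0) of the 10 FGF-ERK genes in the 8 libraries, by group and replicate number, with the mean and SD of each group in black. The shRNA2 libraries lie above both other groups for *Spry2*, *Spry4*, *Spred1*, *Dusp6* and *Etv4* and below them for *Fgf4*.

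The ligand gene *Fgf4* (chr7:144847367-144865243, plus strand) encodes the main FGF made by mESCs. It was measured at 219.9 and 222 CPM in the nt-shRNA libraries, at 201, 186 and 194 CPM with shRNA1, and at 131, 120.0 and 158 CPM with shRNA2. The groups did not overlap, with nt-shRNA highest and shRNA2 lowest. With shRNA2 the gene fell by 0.69 on the log2 scale (SE 0.0819, edgeR adjusted p = 8.4e-07), and between the hairpins the log2 difference was -0.50 (SE 0.0747, edgeR adjusted p = 5.6e-05). With shRNA1 the log2 fold change was -0.19 (95% interval -0.36 to -0.02, edgeR adjusted p = 0.0856). A call was gained in other settings, with an edgeR adjusted p of 0.0214 without the filter on low counts, 0.0405 with only the groups compared, 0.0385 without shRNA2 replicate 2 and 0.0229 without shRNA2 replicate 3. With replicate number as a block the value was -0.25 and also called (edgeR adjusted p = 0.0142).

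The receptor gene *Fgfr1* (chr8:25513654-25575718, plus strand) encodes the main FGF receptor of mESCs. It had 160 and 135 CPM with nt-shRNA, 154, 154 and 166 CPM with shRNA1, and 157, 153 and 165 CPM with shRNA2. The nt-shRNA libraries spanned a wider range than either knockdown group, and all 3 groups overlapped. The log2 fold change was 0.09 (95% interval -0.05 to 0.24) with shRNA1 and 0.10 (95% interval -0.05 to 0.25) with shRNA2, with 0.335 and 0.248 as edgeR's adjusted p. Without TMM factors the values were 0.21 and 0.19, called in both (0.0248 and 0.0244 after adjustment by edgeR), and without nt-shRNA replicate 2 they were -0.03 and -0.02. Without nt-shRNA replicate 1, the shRNA2 value was called at 0.22 (edgeR adjusted p = 0.0379). Of its exon bases, 1.66% are shared with *Gm16159* on the opposite strand, which counting without strand cannot separate.

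The second receptor gene, *Fgfr2* (chr7:130162451-133123350, minus strand), encodes a receptor associated with primitive endoderm in the early embryo. It was scarce, with 56 to 85 counts per library, and measured 2.62 and 1.95 CPM with nt-shRNA, 2.52, 3.45 and 3.03 CPM with shRNA1, and 3.95, 3.29 and 3.12 CPM with shRNA2. All shRNA2 libraries lay above both nt-shRNA libraries, whereas shRNA1 overlapped both groups. The gene rose with shRNA2, with a log2 fold change of 0.60 (SE 0.203, edgeR adjusted p = 0.0177), a 1.51-fold difference. The call was lost under DESeq2 (adjusted p = 0.0636), without nt-shRNA replicate 2 (0.39, edgeR adjusted p = 0.212) and without shRNA2 replicate 1 (0.50, edgeR adjusted p = 0.0777). With shRNA1 the log2 fold change was 0.39 (95% interval -0.04 to 0.82, edgeR adjusted p = 0.156). It was 0.19 to 0.62 when a library was left out, lowest without nt-shRNA replicate 2. Markers of primitive endoderm summed to 44.4 to 45.9 CPM with nt-shRNA, 42.5 to 48.7 CPM with shRNA1 and 35.5 to 41.3 CPM with shRNA2. Of 5 tested markers, 0 were called higher and 1 lower, *Gata6* with shRNA2 (-0.75 on the log2 scale). Of all tested genes, 27.2% were called higher and 28.7% lower with shRNA2, and 13.8% and 17.1% with shRNA1.

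Among the feedback inhibitors, *Spry2* (chr14:105891947-105896819, minus strand), whose promoter window is printed above, encodes a Sprouty protein that restrains receptor tyrosine kinase signalling. It measured 34.6 and 35.3 CPM with nt-shRNA, 53.7, 60.6 and 49.9 CPM with shRNA1, and 94.1, 95.7 and 81.6 CPM with shRNA2. The 3 groups were fully separated, in the order nt-shRNA, shRNA1, shRNA2. The log2 fold change was 0.64 (SE 0.0881, edgeR adjusted p = 2.3e-05) with shRNA1 and 1.37 (SE 0.0883, edgeR adjusted p = 4.8e-10) with shRNA2, which are 1.56-fold and 2.59-fold. The direct difference between the hairpins was 0.73 (SE 0.0755, edgeR adjusted p = 1.9e-06). Each of these 3 calls held in all 15 alternative settings.

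The other Sprouty gene, *Spry4* (chr18:38586247-38601415, minus strand), did not share this order. It measured 8.01 and 8.74 CPM with nt-shRNA, 5.50, 7.30 and 4.95 CPM with shRNA1, and 13.1, 23.0 and 10.2 CPM with shRNA2. The shRNA1 libraries lay below and the shRNA2 libraries above both nt-shRNA libraries, and shRNA2 replicate 2 stood well above the other two of its group. With shRNA2 the log2 fold change was 0.88 (SE 0.231, edgeR adjusted p = 0.00308), and it was 0.48 (edgeR adjusted p = 0.0187) without shRNA2 replicate 2 and 0.88 (adjusted p = 0.0608) under DESeq2. With shRNA1 it was -0.52 (95% interval -1.03 to -0.00, edgeR adjusted p = 0.121), a value called without the filter on low counts (edgeR adjusted p = 0.00311), with only the groups compared (0.0198), without shRNA2 replicate 2 (0.0166) and without shRNA2 replicate 3 (0.0473). The other 11 of 15 settings gave no call. Among them, the value was -0.31 (edgeR adjusted p = 0.143) with replicate number as a block and -0.39 (0.305) without shRNA1 replicate 3. The difference between the hairpins, 1.40 on the log2 scale (SE 0.217, edgeR adjusted p = 8.5e-05), was the largest of the 10 genes and 2.64-fold, with a range of 1.00 to 1.63 over the alternatives.

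*Spred1* (chr2:117121374-117182279, plus strand) encodes a Sprouty-related protein that recruits the RAS inactivator neurofibromin to the membrane. It measured 43.6 and 48.9 CPM with nt-shRNA, 58.4, 58.4 and 48.5 CPM with shRNA1, and 63.8, 61.4 and 60.9 CPM with shRNA2. The shRNA2 libraries were all above the rest, and shRNA1 replicate 3 fell within the nt-shRNA range. The gene rose by 0.25 (SE 0.0839, edgeR adjusted p = 0.0297) with shRNA1 and by 0.42 (SE 0.084, edgeR adjusted p = 2.9e-04) with shRNA2, on the log2 scale. The shRNA1 call was lost without nt-shRNA replicate 1 (edgeR adjusted p = 0.300), shRNA1 replicate 1 (0.116) or shRNA1 replicate 2 (0.128). The hairpins differed by 0.17 (95% interval 0.02 to 0.33, edgeR adjusted p = 0.0763).

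*Dusp6* (chr10:99263231-99267489, plus strand), whose promoter window is also printed above, encodes a cytoplasmic phosphatase that inactivates ERK and is widely used as a readout of ERK activity. It measured 11.1 and 11.3 CPM with nt-shRNA, 9.28, 10.7 and 7.48 CPM with shRNA1, and 15.7, 18.0 and 12.1 CPM with shRNA2. As for *Spry4*, every shRNA1 library lay below and every shRNA2 library above the nt-shRNA libraries. With shRNA2 the log2 fold change was 0.44 (SE 0.152, edgeR adjusted p = 0.0188). The call was lost without nt-shRNA replicate 1 (edgeR adjusted p = 0.0870), nt-shRNA replicate 2 (0.0719) or shRNA2 replicate 2 (0.0932). With shRNA1 the log2 fold change was -0.30 (95% interval -0.63 to 0.02, edgeR adjusted p = 0.150). It was -0.43 to -0.17 when a library was left out, smallest in size without shRNA1 replicate 3, and -0.16 with replicate number as a block. The direct difference of 0.75 (SE 0.141, edgeR adjusted p = 4.8e-04) held in all 15 alternative settings.

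Among the transcription factors, *Etv4* and *Etv5* encode closely related ETS factors induced by FGF signalling. *Etv4* (chr11:101769742-101785371, minus strand) measured 21.8 and 23.1 CPM with nt-shRNA, 22.3, 26.9 and 22.6 CPM with shRNA1, and 44.2, 62.2 and 42.5 CPM with shRNA2. The shRNA1 and nt-shRNA libraries overlapped, and the shRNA2 libraries stood far above both. The log2 fold change was 1.15 (SE 0.13, edgeR adjusted p = 5.2e-07) with shRNA2, a 2.21-fold rise, and 0.09 (95% interval -0.19 to 0.37, edgeR adjusted p = 0.646) with shRNA1. The direct difference was 1.06 (SE 0.115, edgeR adjusted p = 3.0e-06).

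*Etv5* (chr16:22381309-22439719, minus strand) was the more abundant of the pair. It measured 176 and 212 CPM with nt-shRNA, 161, 167 and 158 CPM with shRNA1, and 191, 213 and 182 CPM with shRNA2. The shRNA1 libraries lay below all others, whereas shRNA2 and nt-shRNA overlapped. The gene fell by 0.26 on the log2 scale (SE 0.0774, edgeR adjusted p = 0.0155) with shRNA1, a call lost without nt-shRNA replicate 2 (-0.12, edgeR adjusted p = 0.383) and with library size alone (-0.15, edgeR adjusted p = 0.167). With shRNA2 the log2 fold change was 0.01 (95% interval -0.15 to 0.17, edgeR adjusted p = 0.926). The hairpins differed by 0.27 (SE 0.07, edgeR adjusted p = 0.00581), in the same direction as for *Etv4*.

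*Egr1* (chr18:34859823-34864984, plus strand), an immediate early zinc finger gene, was near the bottom of the group, with 28 to 72 counts per library. It measured 1.98 and 1.50 CPM with nt-shRNA, 2.61, 1.38 and 2.46 CPM with shRNA1, and 2.14, 3.24 and 1.79 CPM with shRNA2. All 3 groups overlapped. The log2 fold change was 0.33 (95% interval -0.26 to 0.91, edgeR adjusted p = 0.400) with shRNA1 and 0.46 (95% interval -0.12 to 1.05, edgeR adjusted p = 0.168) with shRNA2. When a library was left out, it was 0.13 to 0.54 with shRNA1 and 0.18 to 0.67 with shRNA2.

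**Figure D2:**
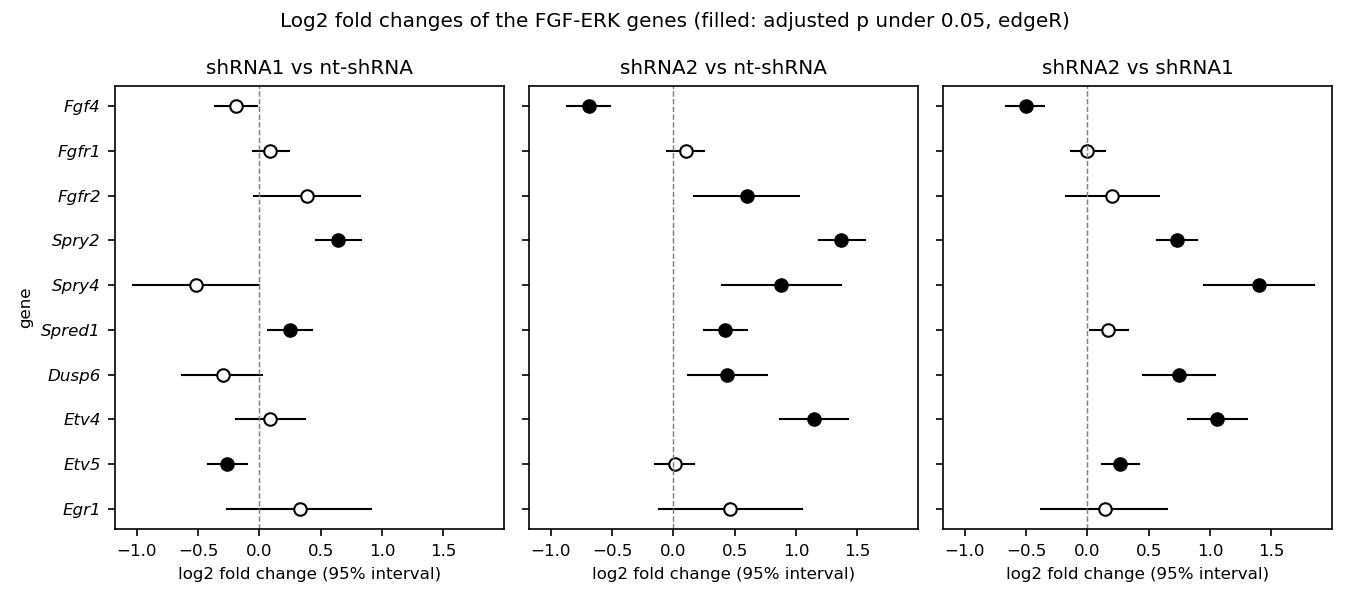
Log2 fold changes (horizontal axis) of the 10 FGF-ERK genes in the 3 comparisons, with 95% intervals as lines and filled points for edgeR adjusted p under 0.05. *Spry4* and *Dusp6* lie left of 0 with shRNA1, where neither is called, and right of 0 with shRNA2, and their direct differences are 1.40 and 0.75.

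Levels were compared between genes as CPM per kilobase of the deposited exon length. With nt-shRNA the order was *Fgf4* at 69.1 ± 0.416 CPM per kilobase (SD, n = 2), *Etv5* at 47.3 ± 6.25, *Spry2* at 16.7 ± 0.222, *Fgfr1* at 15.0 ± 1.81, *Etv4* at 7.23 ± 0.300, *Spred1* at 6.81 ± 0.550, *Dusp6* at 3.58 ± 0.0427, *Spry4* at 1.76 ± 0.107, *Egr1* at 0.388 ± 0.0770 and *Fgfr2* at 0.221 ± 0.0460. *Spry2* and *Fgfr1*, and *Etv4* and *Spred1*, differed by less than the sum of their SDs. With shRNA2, *Etv5* at 47.6 ± 3.97, *Spry2* at 43.3 ± 3.71 and *Fgf4* at 42.7 ± 6.10 CPM per kilobase (SD, n = 3) lay within their spread of each other. *Etv4* at 16.0 ± 3.52 likewise reached *Fgfr1* at 16.0 ± 0.634. Over all libraries *Fgf4* lay at percentile 95.1 of the tested genes by this measure, *Dusp6* at 50.7 and *Fgfr2* at 11.5. The *Fgfr2* gene model extends into *Ctbp2*, with which it shares 3.04% of its exon bases, so that its level per kilobase is uncertain.

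The libraries of 1 group also differed for the feedback genes and ETS factors. In a pattern chosen after the values were seen, replicate 2 was the highest library of its group in all 3 groups for 5 of the 10 genes, *Spry2*, *Spry4*, *Dusp6*, *Etv4* and *Etv5*. This held for 6.10% of the 17445 tested genes. In the nt-shRNA pair the margin was small for some of them. Replicate 2 of nt-shRNA lay 0.0121 above the group mean of log2 CPM for *Dusp6* and 0.0135 for *Spry2*. It lay 0.0421 above for *Etv4*, 0.0616 for *Spry4* and 0.1353 for *Etv5*. For *Spry4*, shRNA2 replicate 2 lay 0.66 above and replicate 3 0.51 below the group mean of log2 CPM. For *Etv4*, shRNA2 replicate 2 lay 0.35 above the group mean. *Fgf4* went the other way in the same library, at 0.18 below its group mean, and *Egr1* was lowest in shRNA1 replicate 2. The labels give no day or batch of infection, so that a batch cannot be told apart from the replicate number.

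**Figure D3:**
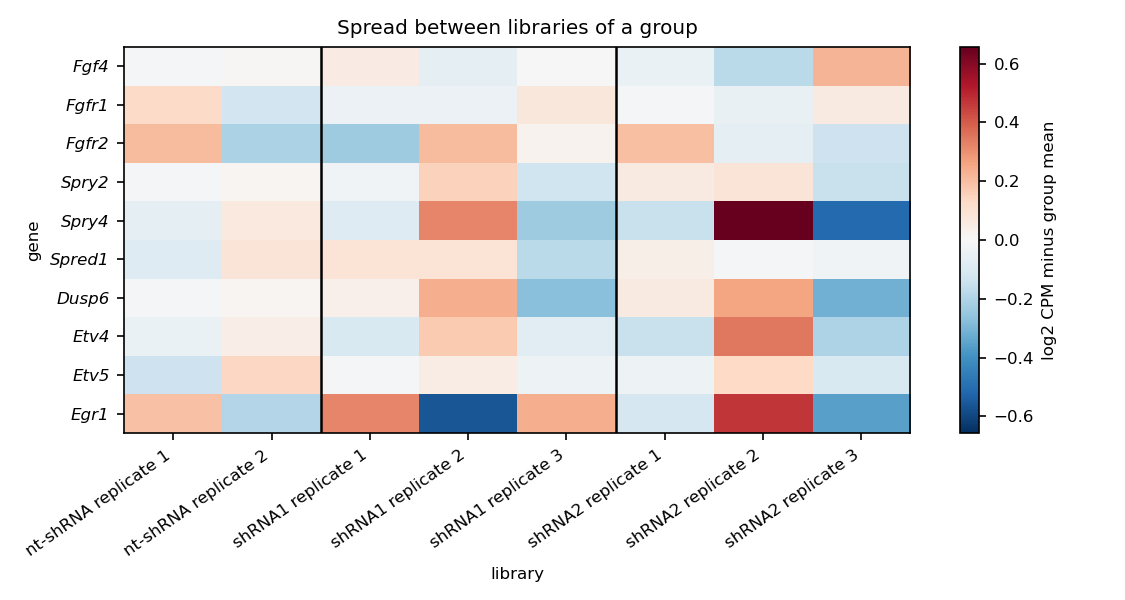
Difference between log2 CPM and the group mean (colour, red above and blue below) for the 10 genes (rows) in the 8 libraries (columns, with lines between groups). Replicate 2 of shRNA2 stands out, with *Spry4* 0.66 above the group mean and *Fgf4* 0.18 below it.

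The genes most alike in pattern were taken for *Fgf4*, *Spry2* and *Dusp6* as the 3 tested genes with the highest Pearson r of log2 CPM over 8 libraries, which fall in 3 groups and share their depth and scaling. For *Fgf4* these were *Nln* (r = 0.998), *Copg2* (0.996) and *Rassf4* (0.996), and for *Spry2* they were *Kmt2a* (0.998), *Ces2g* (0.997) and *Rfx7* (0.997). Such values were common, since 9.95% and 10.9% of tested genes had r above 0.9 with *Fgf4* and *Spry2*. For *Dusp6* they were *Ubl3* (0.980), *Kcnq1ot1* (0.978) and *Alkbh4* (0.972), and 0.797% of tested genes had r above 0.9.

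The rest of the pathway was described with 5 lists of 88 genes in all, of which 73 passed the filter. With shRNA2, 22 of these 73 rose and 22 fell, with a median log2 fold change of -0.02, beside 27.2% and 28.7% of all tested genes. With shRNA1, 10 rose and 17 fell, with a median of -0.01, beside 13.8% and 17.1% of all tested genes. Between the hairpins, 13 were higher and 14 lower with shRNA2, with a median of -0.04, beside 16.9% and 18.7% of all tested genes. No gene of the lists was called in opposite directions by the 2 hairpins.

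Of 21 other FGF ligands, 11 passed the filter, and *Fgf5*, *Fgf6*, *Fgf7*, *Fgf9*, *Fgf12*, *Fgf14*, *Fgf16*, *Fgf20*, *Fgf21* and *Fgf23* did not, with at most 15 counts in any library. With shRNA2, 5 rose and 2 fell, beside 27.2% and 28.7% of all tested genes. The counts with shRNA1 were 2 and 1, beside 13.8% and 17.1%. *Fgf1*, the ligand that binds all FGF receptors, measured 1.87 and 1.84 CPM with nt-shRNA, 7.79, 10.4 and 7.87 CPM with shRNA1, and 11.2, 10.5 and 8.53 CPM with shRNA2. Both knockdown groups were thus far above nt-shRNA and overlapped each other. Its log2 fold change was 2.21 (SE 0.189, edgeR adjusted p = 1.4e-07) with shRNA1 and 2.44 (SE 0.187, edgeR adjusted p = 3.8e-09) with shRNA2, and the hairpins differed by 0.23 (95% interval -0.06 to 0.51). *Fgf11*, an intracellular FGF that is not secreted, fell by 0.61 with shRNA1 and 1.02 with shRNA2 on the log2 scale. *Fgf17*, a secreted ligand of the *Fgf8* subfamily, rose with shRNA2 (0.73, edgeR adjusted p = 0.00326) and had -0.18 (adjusted p = 0.537) with shRNA1.

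Of 18 other receptors, co-receptors and RAS adaptors, 17 passed the filter, *Kl* being the exception. With shRNA2, 4 rose and 5 fell, beside 27.2% and 28.7% of all tested genes. The counts with shRNA1 were 1 and 4, beside 13.8% and 17.1%. *Fgfrl1*, a receptor that lacks the kinase domain, fell with both hairpins, and its mean was 18.3 ± 0.921 CPM (SD, n = 2) under nt-shRNA, 13.9 ± 1.25 CPM (SD, n = 3) under shRNA1 and 9.64 ± 1.04 CPM (SD, n = 3) under shRNA2. *Fgfr4*, a further FGF receptor, fell by 0.53 with shRNA1 (edgeR adjusted p = 0.00514) and 0.91 with shRNA2 (edgeR adjusted p = 1.6e-05) on the log2 scale. The RAS gene *Nras* fell by 0.20 and 0.26 (edgeR adjusted p = 0.0147 and 8.5e-04). *Frs2*, the docking protein that links FGF receptors to RAS, had log2 fold changes of 0.01 (95% interval -0.12 to 0.13) and -0.07 (95% interval -0.19 to 0.06), and is named here after its values were seen.

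All 16 kinases and scaffolds from RAF to ERK and the kinases ERK drives passed the filter. With shRNA2, 2 rose and 5 fell, beside 27.2% and 28.7% of all tested genes. The counts with shRNA1 were 2 and 6, beside 13.8% and 17.1%. *Map2k1*, which encodes MEK1, had 242 and 245 CPM with nt-shRNA, 197, 197 and 209.7 CPM with shRNA1, and 164, 148 and 162 CPM with shRNA2. The groups did not overlap, and the log2 fold change was -0.27 (edgeR adjusted p = 0.00233) with shRNA1 and -0.62 (edgeR adjusted p = 8.8e-08) with shRNA2. *Mapk3*, which encodes ERK1, fell by 0.48 and 0.76 on the log2 scale (edgeR adjusted p = 8.0e-05 and 9.2e-08). *Rps6ka2*, a ribosomal S6 kinase activated by ERK, fell by 0.33 and 0.78 (edgeR adjusted p = 0.00695 and 5.2e-07).

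Of 12 other feedback inhibitors, 11 passed the filter, and no row of the table was matched to *Spry3*. With shRNA2, 3 rose and 6 fell, with a median log2 fold change of -0.37, beside 27.2% and 28.7% of all tested genes. The counts with shRNA1 were 1 and 3, with a median of -0.08, beside 13.8% and 17.1%. *Dusp4*, a nuclear ERK phosphatase, measured 14.2 and 14.1 CPM with nt-shRNA, 4.96, 6.31 and 7.83 CPM with shRNA1, and 4.64, 4.55 and 3.53 CPM with shRNA2. All groups were separated, with log2 fold changes of -1.14 (SE 0.154, edgeR adjusted p = 2.1e-05) and -1.74 (SE 0.162, edgeR adjusted p = 4.6e-08). *Dusp1*, a phosphatase acting on several MAP kinases, fell by 0.53 with shRNA2 (edgeR adjusted p = 1.1e-04) and had -0.00 (adjusted p = 0.987) with shRNA1. *Spred3* rose by 0.56 and 0.90 on the log2 scale (edgeR adjusted p = 0.0102 and 5.7e-05).

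Of 21 other ERK-responsive transcription factors and early genes, 18 passed the filter, and *Fosl1*, *Egr2* and *Egr3* had at most 9 counts in any library. With shRNA2, 8 rose and 4 fell, with a median log2 fold change of 0.11, beside 27.2% and 28.7% of all tested genes. The counts with shRNA1 were 4 and 3, with a median of -0.04, beside 13.8% and 17.1%. *Erf*, an ETS repressor that ERK removes from the nucleus, measured 83.7 and 76.7 CPM with nt-shRNA, 111, 131 and 116 CPM with shRNA1, and 238, 264 and 228 CPM with shRNA2. Its groups were fully separated in the same order as those of *Spry2*, with a 1.49-fold rise (edgeR adjusted p = 2.8e-05) with shRNA1 and a 3.03-fold rise (edgeR adjusted p = 3.7e-11) with shRNA2. *Ier3*, an early gene, fell by 0.58 and 1.62 on the log2 scale (edgeR adjusted p = 5.2e-04 and 1.7e-09). *Etv3*, an ETS repressor related to *Erf*, rose by 0.42 and 0.60 (edgeR adjusted p = 4.0e-04 and 2.4e-06).

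**Figure D4:**
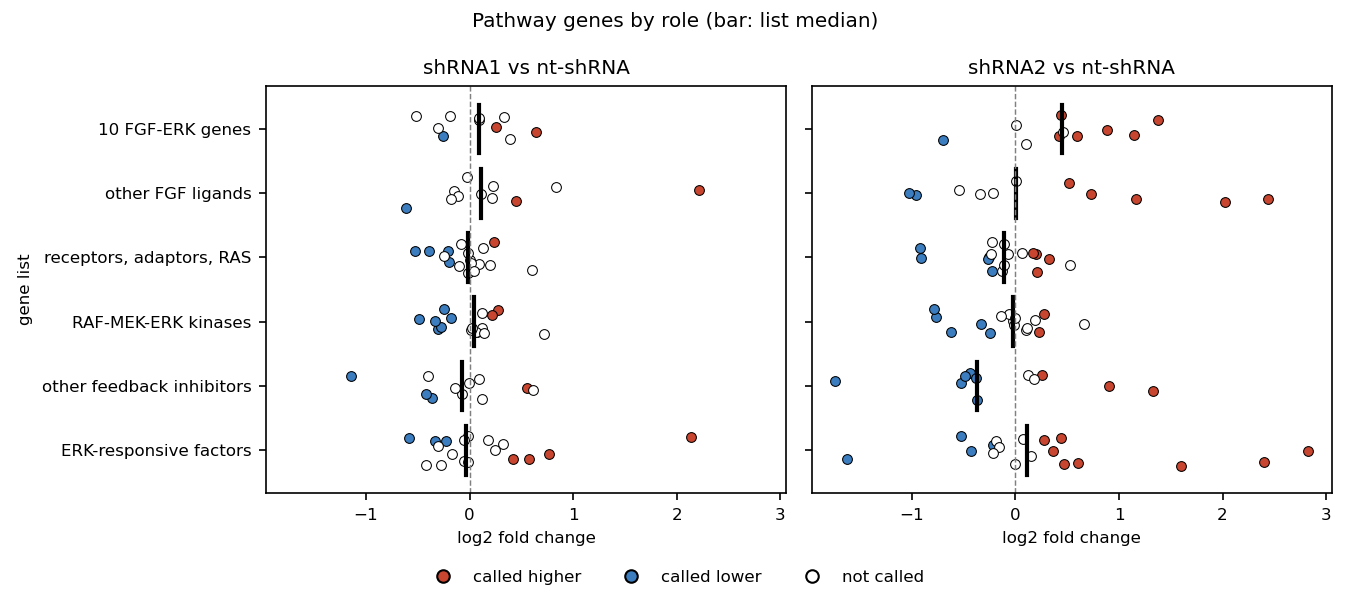
Log2 fold changes (horizontal axes) of the 10 FGF-ERK genes and of 5 lists of other pathway genes (rows), with points coloured by edgeR call and a bar at each list's median. With shRNA2 the median is 0.45 for the 10 genes and -0.37 for the other feedback inhibitors.

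Cell type markers also differed between the groups. The summed level of the 10 pluripotency markers was 4536 to 4594 CPM with nt-shRNA, 5045 to 5226 CPM with shRNA1 and 6046 to 6221 CPM with shRNA2, with 5 of 10 called higher and 1 lower with shRNA1 and 8 higher and 1 lower with shRNA2, beside 13.8%, 17.1%, 27.2% and 28.7% of all tested genes. The one called lower was *Pou5f1*, at -0.35 with shRNA1 and -0.29 with shRNA2. Primed epiblast markers summed to 82.7 to 93.2, 99.7 to 110 and 120 to 128 CPM in the same order of groups, with 1 of 4 tested called higher and 1 lower with each hairpin. *Dnmt3b* was the one called higher, by 0.67 with shRNA1 and 1.25 with shRNA2 on the log2 scale. Those called lower were *T* with shRNA1 (-0.81) and *Otx2* with shRNA2 (-0.64), and *Fgf5* had at most 3 counts in every library. Trophectoderm markers summed to 48.7 to 55.6, 39.0 to 44.3 and 25.9 to 30.2 CPM, with *Krt7* the only one of 4 tested that was called. Neural markers summed to 16.9 to 19.4, 21.7 to 24.2 and 32.4 to 46.1 CPM, with *Tubb3* alone of 3 tested called and the proneural gene *Neurog2* at 3 counts or fewer in every library. Fibroblast markers summed to 4.59 to 4.94, 6.46 to 7.34 and 6.27 to 7.56 CPM, with *Col1a2* alone of 3 tested called (higher by 1.27 and 1.66 on the log2 scale) and *Col3a1* and *Postn* at 3 counts or fewer in every library. Their part in the values of the FGF-ERK genes was not tested.

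With library size alone in place of TMM, the median log2 fold change of all tested genes with shRNA1 moved from -0.01 to 0.11, and the share of calls that were higher moved from 44.7% to 70.5% with shRNA1 and from 48.7% to 58.9% with shRNA2. Of the 10 genes, only *Fgfr1* and *Etv5* gained or lost a call under this scaling, with the values given above.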

How the data were processed

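Counts of 8 RNA-seq libraries were analysed. Per the labels and the study's methods, the authors aligned paired-end reads of poly(A)-selected RNA to GRCm38 (mm10) with STAR (version not given in the sources used here) and counted fragments on exons of GENCODE M24 genes with featureCounts 1.6.2, with no strand option, so that overlapping and antisense genes are uncertain. The deposited values are raw counts per gene for 55385 genes, of which 55144 were matched to a symbol by Ensembl identifier. No per-sample column was left out.

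The filter filterByExpr with its minimum count of 10 kept 17445 genes, which were scaled by TMM (factors 0.935 to 1.036) and tested with edgeR 4.0.16 (glmQLFit, glmQLFTest; R 4.3.3, limma 3.58.1) in 1 fit over all libraries that had a term for each group and no replicate block. The authors' own test was DESeq2. Genes with a Benjamini-Hochberg adjusted p under 0.05 over all tested genes were called. Standard errors were taken from the F statistic, and 95% intervals cover the spread between libraries, which the labels call biological replicates. The biological coefficient of variation was 0.0638. Libraries of a group differed by more than sampling noise (chi-square per gene 3.39 to 13.39).

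Depth was 19569525 to 29871048 counts per library. In simulated counts for shRNA2 against nt-shRNA (17080 genes), 77 of 100 genes changed 1.5-fold and 97 of 100 changed 2-fold were recovered, with 3.87% false calls. The simulation gave every gene the same spread and changed only these genes, taken from those above a minimum mean CPM. In the real data 27.2% of tested genes were called higher and 28.7% lower with shRNA2, so these rates need not carry over. The members and lists were chosen with earlier results of these data known. By rule, the genes named are the 10 members, *Eftud2*, per list the 3 genes whose adjusted p was smallest with shRNA2, and any called in opposite directions by the hairpins. Outside this rule, *Frs2*, *Myc*, *Fgf2*, *Fosb*, *Fgf18* and *Dusp2* were named after their values were seen. Genes that missed the filter, cell type markers and genes alike in pattern are named as well. Promoters were searched and tables read with Python 3.11.15 and pandas 2.3.3, and figures were drawn with matplotlib 3.10.9. Alternatives changed the tool (DESeq2 1.42.0), the scaling (size factors of DESeq2, or none beyond library size), the filter (none, or 10 counts required in each library), the libraries in the fit (the compared groups alone, or 1 library left out at a time) and the block (replicate number).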

Additional observations from a re-analysis of the deposited data

Results flagged for a closer look

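The values of some genes differed between the hairpins by the direct test, with fitted values on either side of 0 against nt-shRNA. *Spry4* had log2 fold changes of -0.52 with shRNA1 (not called, edgeR adjusted p = 0.121) and 0.88 with shRNA2, and the direct difference was 1.40 (SE 0.217, edgeR adjusted p = 8.5e-05), with every shRNA1 library below and every shRNA2 library above both nt-shRNA libraries. The shRNA1 value was called in 4 other settings (edgeR adjusted p 0.00311 to 0.0473) and not in the remaining 11 of 15. It was -0.31 with the replicate block and -0.39 without shRNA1 replicate 3, neither called. The shRNA2 call was lost under DESeq2 (adjusted p = 0.0608) and its value was 0.48 without shRNA2 replicate 2. *Dusp6* had -0.30 with shRNA1 (not called, edgeR adjusted p = 0.150) and 0.44 with shRNA2, and the direct difference was 0.75 (SE 0.141, edgeR adjusted p = 4.8e-04), with the same separation of libraries. Its shRNA1 value was -0.17 without shRNA1 replicate 3 and -0.16 with the replicate block. Its shRNA2 call was lost without nt-shRNA replicate 1 or 2 or shRNA2 replicate 2. *Etv5* had -0.26 with shRNA1 and 0.01 with shRNA2 (95% interval -0.15 to 0.17), and the direct difference was 0.27 (SE 0.07, edgeR adjusted p = 0.00581). No opposite direction is shown for *Etv5*, since its shRNA2 value was near 0 and was -0.12 without nt-shRNA replicate 1. Over all tested genes, 16.9% were called higher with shRNA2 than with shRNA1. How many of them also had fitted values on either side of 0, or libraries separated in this way, was not counted. With n = 2 for nt-shRNA, such a separation is a weak criterion.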

How the results depend on the processing

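Over 15 alternative settings, 411 of 450 values of the 10 genes (30 comparisons of a gene) kept their direction and their side of the threshold, and 39 did not. Over all tested genes, 5388 were called with shRNA1 as reported, 5346 without the filter on low counts and 5593 with only the groups compared. With shRNA2, 9758 were called as reported, 8500 under DESeq2 and 9927 with library size alone. Of the 10 genes, the number called with shRNA1, 3 as reported, was 5 without the filter and 5 with only the groups compared. It was 2 to 5 when an shRNA1 or shRNA2 library was left out, with 5 without shRNA2 replicate 2 or 3. With shRNA2 it was 7 as reported, 5 under DESeq2, 8 with library size alone and 5 to 7 when a library was left out (5 without nt-shRNA replicate 2), and between the hairpins 6 as reported and in every fit with a library left out. Fits without an nt-shRNA library assume that the lone remaining one varies like the other groups, and in these fits the count over all genes with shRNA1 fell from 5388 to 2948 without nt-shRNA replicate 1. *Eftud2* with shRNA1 passed the threshold without the filter (-0.18, edgeR adjusted p = 0.0300), with only the groups compared (-0.16, 0.0491) and under DESeq2 (-0.18, 0.0487), and was -0.20 to -0.16 when a library was left out, with a call without shRNA2 replicate 2 or 3. With library size alone it was -0.06 (0.498). Values that turned in sign were those of genes that did not pass the test. When a library was left out, *Fgfr1* was -0.03 to 0.22 with shRNA1 and -0.02 to 0.22 with shRNA2, lowest without nt-shRNA replicate 2 in both. Between the hairpins *Fgfr1* was -0.02 with library size alone, -0.01 without the filter, -0.00 with at least 10 counts in every library or only the groups compared, and -0.03 to 0.04 when a library was left out. *Etv5* with shRNA2 was -0.01 without the filter and -0.12 to 0.15 when a library was left out, and *Egr1* between the hairpins was -0.15 to 0.31. The cause was not tested. The replicate numbers were treated as names, since deviations of same-numbered libraries correlated at -0.03 to 0.07 over all tested genes. Each shRNA1 library nonetheless correlated best with the shRNA2 library of its own number. In its qPCR the study set each hairpin replicate against its matching nt-shRNA replicate. Whether the library numbers mark such pairs is not stated, and a correlation over all genes does not settle it for these 10. With the replicate block, 4, 7 and 7 genes were called in the 3 comparisons, *Eftud2* with shRNA1 was -0.21 (edgeR adjusted p = 0.0206), *Fgf4* with shRNA1 -0.25 (0.0142) and *Spred1* between the hairpins 0.18 (0.0435). Counting error weighs most on *Egr1* and *Fgfr2*, which had the fewest counts of the 10 genes (28 to 72 and 56 to 85 per library).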

Other observations

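Some pathway genes with large fold changes were outside the rule for naming and were chosen after their values were seen. *Myc*, the transcription factor gene that responds to growth signals, had 0.300 and 0.696 CPM with nt-shRNA, 0.541, 0.887 and 0.427 CPM with shRNA1, and 2.97, 6.26 and 1.56 CPM with shRNA2. The shRNA2 libraries lay above all others and differed widely among themselves, with replicate 2 the highest. The log2 fold change was 2.83 (SE 0.487, edgeR adjusted p = 7.0e-05) with shRNA2 and 0.25 (SE 0.637, edgeR adjusted p = 0.804) with shRNA1, and the hairpins differed by 2.58 (SE 0.426, edgeR adjusted p = 1.5e-04), from 8 to 139 counts per library. *Fgf2*, a secreted FGF ligand, had 10 to 27 counts per library and a log2 fold change of 1.16 (SE 0.336, edgeR adjusted p = 0.00638) with shRNA2 and 0.11 (SE 0.379, edgeR adjusted p = 0.853) with shRNA1. *Fosb*, with 3 to 18 counts per library, rose by 2.14 with shRNA1 (edgeR adjusted p = 0.00487) and 2.40 with shRNA2 (edgeR adjusted p = 6.3e-04). With shRNA2, *Fgf18* rose by 2.03 (1 to 14 counts, edgeR adjusted p = 0.0174) and *Dusp2* by 1.33 (8 to 23 counts, edgeR adjusted p = 0.00542). Neither was called with shRNA1.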
